A study of Mus musculus with 12 samples.

Results

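The neuregulin and ErbB receptor genes are 8 rows of a table of 23382 gene rows, chosen by their mouse symbols: the ligands Nrg1, Nrg2, Nrg3 and Nrg4 and the receptors Egfr, Erbb2, Erbb3 and Erbb4. They are a named gene family, and no measured value enters the rule. All 8 passed the filter on low counts that left 15802 genes to test. RNA from the hippocampus of mice on a C57BL/6 background was sequenced in 12 libraries, 3 in each of 4 groups: DISC1 mutant (aDN-DISC1) mice given Δ9-THC, mutant mice given vehicle, control mice given Δ9-THC, and control mice given vehicle. Δ9-THC, the main psychoactive compound of cannabis, is written THC below, and DISC1 is a scaffold protein. The series title places the THC exposure in adolescence, the memory outcome in adulthood and the genetic vulnerability in astrocytes. The sources used here do not give the dose, the ages, the sex of the mice, the promoter or cell type that carries the mutation, or what the letters aDN stand for. The controls carry no genotype entry and were placed by their titles.

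Neuregulins are growth factors with an EGF-like domain. Most are made as membrane-bound precursors that proteases cut, and the freed or tethered domain binds ErbB3 or ErbB4 on a neighbouring cell. ErbB receptors are tyrosine kinases that work in pairs: ErbB2 binds no known ligand and serves as a partner, ErbB3 has little kinase activity of its own, and EGFR answers EGF, TGF-alpha and related ligands rather than neuregulins. In the rodent hippocampus ErbB4 is known mainly from GABA interneurons, ErbB3 from cells of the oligodendrocyte lineage, and Nrg3 from excitatory neurons.

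Levels are given as CPM, counts per 1e+06 counts of a library, and only between genes as CPM per kilobase. The length is that of the longest GENCODE transcript matched to the RefSeq transcripts of the row. Per kilobase, Nrg3 led at a mean of 8.59, followed by Erbb4 at 4.45, and each stood above the next gene in 12 of 12 libraries. Erbb3 at 2.59 and Egfr at 2.58 CPM per kilobase did not separate, since Erbb3 was the higher in 7 of 12 libraries, and Egfr was above Nrg2 (2.29) in 8 of 12. Nrg2 stood above Nrg1 (0.988) in all 12 libraries, Nrg1 above Erbb2 (0.517) in 11 of 12, and Erbb2 above Nrg4 (0.112) in all 12. Among the 4 neuregulins Nrg3 held 71.4% ± 7.32 of the summed CPM per kilobase (SD, n = 12 libraries), and among the 4 receptors Erbb4 held 43.9% ± 3.17, Erbb3 25.5% ± 3.26, Egfr 25.5% ± 1.25 and Erbb2 5.12% ± 0.771.

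The order depends on the transcript taken as the length. The Egfr row joins 2 RefSeq transcripts, matched to GENCODE transcripts of 10208 and 2943 bases. With the shorter one Egfr would stand at 8.95 CPM per kilobase. The Nrg3 row joins 3 RefSeq transcripts, to which 2 GENCODE transcripts were matched. With the shorter of these (2175 bases, against 4011) Nrg3 would stand at 15.8. The Nrg1 row counts 1 of the 12 curated RefSeq transcripts of that gene (NM_178591, matched to a GENCODE transcript of 2452 bases). The Nrg2 row counts 1 of 2, so reads of other isoforms may be missing from both rows. Whether counting used strand was not stated, so antisense partners of these genes could add to their rows.

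In GRCm38.p6, the assembly of mm10, 3 members span over a megabase each: Nrg1 at chr8:31807452-32891609, Nrg3 at chr14:38365102-39473235 and Erbb4 at chr1:68031884-69108576. The others are shorter: Egfr lies at chr11:16752203-16913907, Erbb2 on the same chromosome at chr11:98412484-98437716, Erbb3 at chr10:128567523-128589635 and Nrg4 at chr9:55220222-55283654. The counts are of the RefSeq transcripts in each row. The longest GENCODE transcripts matched to them run from 1927 (Nrg4) to 12037 (Erbb4) bases.

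The RefSeq promoter table holds 5 of the 8 members. Those of Egfr and Erbb4 are shown because these receptors were high and low in the same libraries, as described further on. Each is the stretch from 250 bases before to 50 bases after the start site used by that table, in GRCm38.p6, read 5′ to 3′ on the strand of the gene. Egfr is chr11:16751953-16752252 on the plus strand, and Erbb4 is chr1:69108010-69108309 on the minus strand. The start site behind the Erbb4 window, 69108059, lies 517 bases inside the outermost start of the gene given above, so the window lies wholly within the annotated gene. Capitals mark a GC box, searched as GGGCGG and its reverse complement CCGCCC.
Egfr: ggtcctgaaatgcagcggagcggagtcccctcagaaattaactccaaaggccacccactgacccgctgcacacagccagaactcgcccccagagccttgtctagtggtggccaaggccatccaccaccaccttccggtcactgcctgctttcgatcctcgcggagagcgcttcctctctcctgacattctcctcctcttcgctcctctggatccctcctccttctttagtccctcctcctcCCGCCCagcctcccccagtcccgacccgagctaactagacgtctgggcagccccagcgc
Erbb4: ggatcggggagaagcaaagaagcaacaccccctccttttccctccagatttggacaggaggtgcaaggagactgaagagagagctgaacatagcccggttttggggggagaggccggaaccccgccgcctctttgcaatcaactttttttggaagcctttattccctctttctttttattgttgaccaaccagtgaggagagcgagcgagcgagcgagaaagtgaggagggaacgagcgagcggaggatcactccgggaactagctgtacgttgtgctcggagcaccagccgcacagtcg
The Egfr stretch holds 1 GC box and the Erbb4 stretch holds 0, against 35.7% of 32851 promoters of the same length with at least 1. Neither holds the TATA motif searched (TATAAA, either strand), which 13.6% of promoters hold, nor the E-box CANNTG, which 72.3% hold. Both are rich in CpG, with 15 in Egfr and 17 in Erbb4, against a median of 7 over all promoters. A motif match is a description of the letters in this window only.

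Total expected counts were 33165903 to 41389957 per library. At this depth Erbb4 had 1651 to 2543 counts per library, Nrg3 809 to 1574, Egfr 754 to 1143 and Erbb3 424 to 735. Nrg2 had 159 to 345 counts, Erbb2 77 to 144, Nrg1 37 to 218 and Nrg4 3 to 16, so that Nrg4 passed the filter narrowly and its values carry the largest counting error of the 8. The mouse Disc1 row had 1.42 to 3.04 CPM in mutant libraries, against 1.79 to 2.58 CPM in control libraries, and the labels do not say whether it counts the mutant form. Genes of hippocampal subfields were present in every library: Prox1, a dentate granule cell factor, at 30.8 to 97.8 CPM, Wfs1, of CA1 pyramidal cells, at 71 to 147 CPM, and Zbtb20 at 54.2 to 127 CPM.

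The libraries differed in markers of neighbouring tissue. Ttr, the transthyretin gene of the choroid plexus, ran from 34.0 to 9979 CPM in mutant libraries, against 20.1 to 5090 CPM in control libraries. Of the 12 choroid plexus markers, the summed level was 328 to 10440 CPM in mutant THC, 6119 to 16850 CPM in mutant vehicle, 327 to 8876 CPM in control THC and 323 to 405 CPM in control vehicle libraries. The mutant vehicle libraries were thus all high and the control vehicle libraries all low. The 9 striatal neuron markers summed to 4565 CPM in mutant THC library 3 and 577 CPM in mutant vehicle library 3, and to between 170 and 197 CPM in control libraries. Adora2a, a receptor gene of striatal projection neurons, reached 192 CPM at most, against 0.967 to 1.78 CPM in the 10 libraries other than these 2. The labels number the libraries so that vehicle ones hold 6 to 11 and THC ones 1 to 5 and 12, and that numbering and the treatment cannot be told apart.

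**Figure D1:**
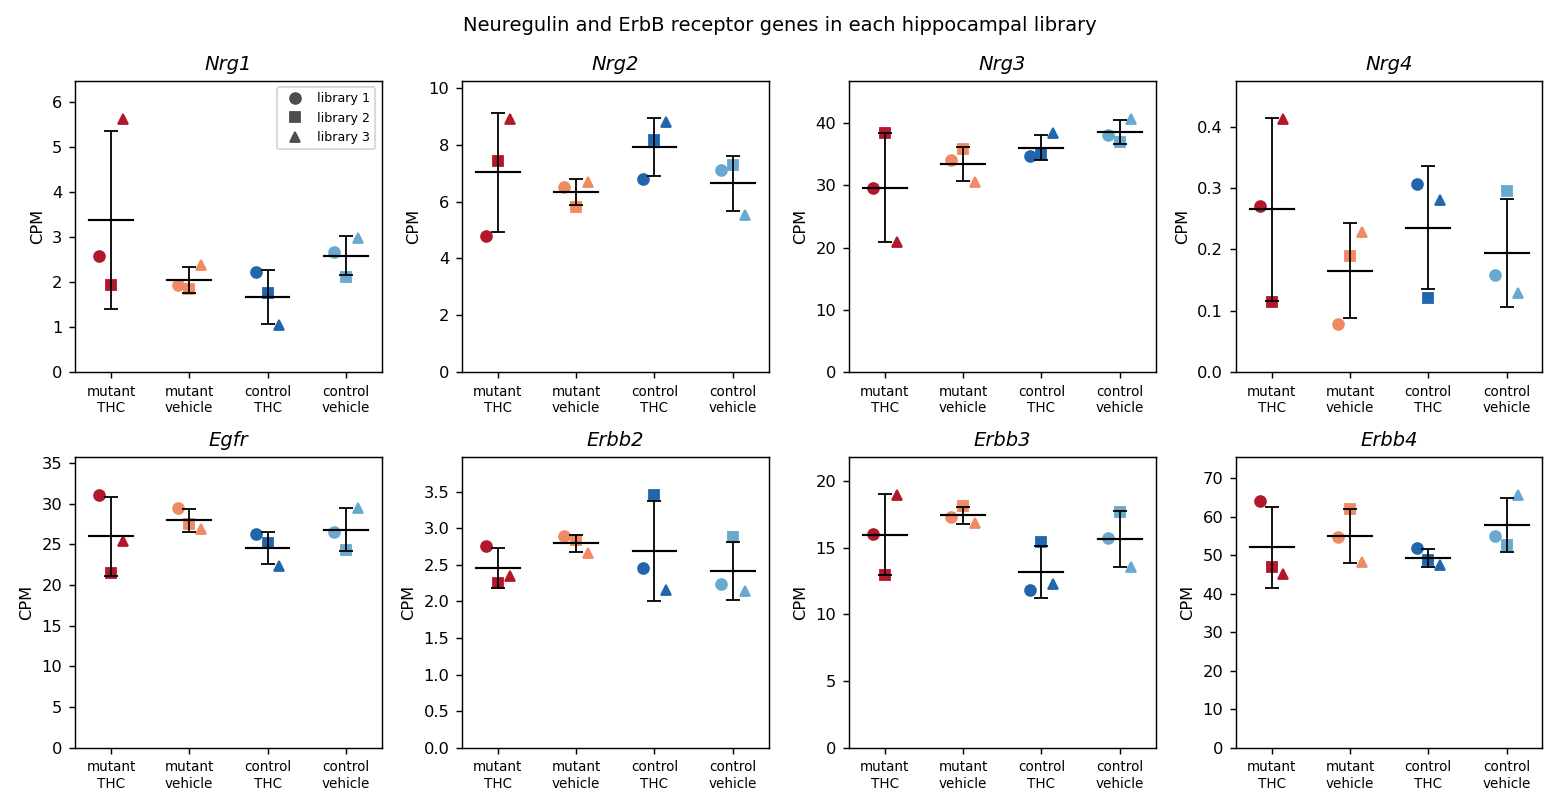
CPM of each of the 8 genes (vertical axes, from 0) in every library, by group on the horizontal axis; points are libraries, horizontal lines the group means and bars the SD of 3 libraries. In the pairs of groups compared in the text, the groups overlap for most genes. Mutant THC library 3 (triangle) is highest for Nrg1 at 5.63 CPM and lowest for Nrg3 at 20.9 CPM.

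With edgeR's quasi-likelihood test and Benjamini-Hochberg adjustment over 15802 genes, 0 of the 8 genes passed an adjusted p of 0.05 in any of 8 comparisons: THC in each genotype, the mutation under each treatment, their interaction, both effects averaged, and mutant THC against control vehicle. The comparisons share libraries. The background was as low: 0% of genes tested passed for THC in mutants, THC in controls, the interaction and the averaged THC effect, and 0.00633%, 1 gene, passed in each of the other 4. That gene was Prm1, a sperm protamine gene. At an unadjusted p under 0.05, 0 members passed for THC in mutants, THC in controls, the mutation under vehicle and both averaged effects, and 1 passed in each of the other 3. Over all genes that share was 5.73% for THC in mutants, 7% for THC in controls, 8.98% for the mutation under THC, 17.8% under vehicle, 6.59% for the interaction, 6.05% for the averaged THC effect, 21.2% for the averaged effect of the mutation and 14.1% for mutant THC against control vehicle. DESeq2 and limma-voom also called 0 of the 8 in every comparison. The lowest adjusted p among the members was 0.26, for the averaged effect of the mutation.

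Nrg1, the founding neuregulin and a ligand of ErbB3 and ErbB4, had the largest fitted differences. It stood at 2.58, 1.93 and 5.63 CPM in mutant THC libraries 1 to 3, against 1.94, 1.84 and 2.38 CPM in mutant vehicle libraries. In control mice it stood at 2.23, 1.75 and 1.04 CPM under THC, against 2.66, 2.12 and 2.97 CPM under vehicle. The single value of 5.63 CPM lies outside the range of the other 11 libraries, 1.04 to 2.97 CPM, and the groups overlap in every comparison.

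On the log2 scale Nrg1 was higher by 1.02 in mutant THC than in control THC libraries (SE 0.38, 95% interval 0.18 to 1.86), with an unadjusted p of 0.022 and an edgeR adjusted p of 0.55. Without mutant THC library 3 the difference was 0.43. The interaction, the THC effect in mutants minus that in controls, was 1.35 (95% interval 0.17 to 2.53, edgeR unadjusted p 0.029, adjusted p 0.73), and 0.76 without that library. THC in mutants gave 0.72 (95% interval -0.11 to 1.55), which became 0.13 without it, and THC in controls gave -0.63 (95% interval -1.47 to 0.22), which became -0.38 without control THC library 3 and -0.89 without control THC library 1. Mutant THC library 3 also had the highest striatal marker sum and the lowest Prox1 and Zbtb20 of the 12. Its Wfs1, at 88.5 CPM, was not the lowest, which was 71 CPM in mutant vehicle library 3. The part of tissue composition in the Nrg1 values was not tested.

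Nrg2, a relative of Nrg1 that also binds ErbB3 and ErbB4, lies at chr18:36014581-36197532. It had 4.78, 7.42 and 8.91 CPM in mutant THC libraries and 6.51, 5.81 and 6.70 CPM in mutant vehicle libraries. Control THC libraries had 6.80, 8.17 and 8.80 CPM, against 7.11, 7.28 and 5.53 CPM in control vehicle libraries. The mutant THC libraries held both the lowest and the highest value of the 12. The averaged THC effect was 0.20 on the log2 scale (95% interval -0.11 to 0.52), and the averaged effect of the mutation -0.12 (95% interval -0.43 to 0.20). Both intervals lie inside a 1.5-fold change in either direction.

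Nrg3, an ErbB4 ligand and the most abundant member per kilobase, had 29.6, 38.5 and 20.9 CPM in mutant THC libraries and 34.1, 35.8 and 30.5 CPM in mutant vehicle libraries. It had 34.7, 35.1 and 38.4 CPM in control THC libraries, against 38.2, 37.0 and 40.7 CPM in control vehicle libraries. All 3 mutant vehicle libraries lay below all 3 control vehicle libraries, the only comparison in which the groups of Nrg3 did not overlap. Such a separation was seen for 28% of all genes tested in that comparison, and for 1 of the 8 members.

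The fitted Nrg3 differences were -0.38 for mutant THC against control vehicle (SE 0.17, 95% interval -0.75 to -0.01, edgeR unadjusted p 0.046, adjusted p 0.35), -0.21 for the mutation under vehicle and -0.24 averaged over treatments (edgeR adjusted p 0.26). The first of these was -0.61 without mutant THC library 2 and -0.18 without mutant THC library 3. Without mutant THC library 2 the averaged effect was -0.36 with an edgeR adjusted p of 0.044, and without mutant THC library 3 it was -0.14. With the choroid plexus marker score as a covariate the difference under vehicle was 0.07. Under vehicle that score was high in all mutant and low in all control libraries, so the mutation and the choroid plexus content cannot be told apart there. THC gave -0.18 in mutants and -0.10 in controls.

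Nrg4, a neuregulin best known from fat tissue and a ligand of ErbB4, had 0.114 to 0.413 CPM in mutant THC, 0.0788 to 0.228 CPM in mutant vehicle, 0.120 to 0.307 CPM in control THC and 0.129 to 0.295 CPM in control vehicle libraries. The ranges of all 4 groups overlap. The 95% interval for THC in mutants ran from -0.57 to 1.94 on the log2 scale, so a 2-fold rise lies within it and is not excluded.

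Erbb4, the main neuregulin receptor of hippocampal interneurons, had 64.2, 46.9 and 45.0 CPM in mutant THC libraries and 54.6, 62.1 and 48.2 CPM in mutant vehicle libraries. In controls it had 51.9, 48.6 and 47.4 CPM under THC, against 55.03, 52.7 and 65.7 CPM under vehicle. All 3 control THC libraries lay below all 3 control vehicle libraries. Of all genes tested, 16.4% separated in this way between those groups, and 1 of the 8 members. The difference was -0.23 (SE 0.14, 95% interval -0.54 to 0.08, edgeR adjusted p 0.76), and between -0.29 and -0.12 when single libraries were left out. In mutants the THC difference was -0.08 (95% interval -0.39 to 0.23), and the interaction of 0.15 (95% interval -0.29 to 0.59) did not pass. The averaged effect of the mutation on Erbb4 was 0.00 (95% interval -0.22 to 0.22), so a change of 1.5-fold in either direction lies outside this interval.

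Erbb3, the kinase-poor partner receptor, had 16.0, 12.9 and 19.0 CPM in mutant THC libraries and 17.3, 18.1 and 16.9 CPM in mutant vehicle libraries. It had 11.8, 15.4 and 12.3 CPM in control THC libraries, against 15.7, 17.7 and 13.5 CPM in control vehicle libraries. The 3 mutant vehicle libraries lie close together and overlap the upper part of the control vehicle range. The difference averaged over treatments was 0.22 for the mutation (95% interval -0.02 to 0.45, edgeR adjusted p 0.26) and -0.19 for THC (95% interval -0.42 to 0.05, edgeR adjusted p 0.83). With the choroid plexus score as a covariate the averaged difference for the mutation was -0.00. Under vehicle that score was high in all mutant and low in all control libraries. This fit therefore cannot fully separate the mutation from choroid plexus content.

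Egfr, the receptor of EGF and TGF-alpha, had 31.1, 21.4 and 25.4 CPM in mutant THC libraries and 29.5, 27.5 and 26.9 CPM in mutant vehicle libraries. It had 26.2, 25.1 and 22.3 CPM in control THC libraries, against 26.6, 24.3 and 29.5 CPM in control vehicle libraries. Its 95% interval lay inside a 1.5-fold change in every one of the 8 comparisons, the only member for which it did. Erbb2, the partner receptor without a ligand, had 2.25 to 2.76 CPM in mutant THC, 2.66 to 2.89 CPM in mutant vehicle, 2.16 to 3.46 CPM in control THC and 2.15 to 2.87 CPM in control vehicle libraries. Its largest fitted value was the interaction, -0.35 (95% interval -0.94 to 0.25), which became -0.12 without control THC library 2.

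For THC in mutants, for the mutation under THC and for mutant THC against control vehicle, every one of the 8 genes overlapped between the groups. Mutant vehicle and control THC libraries, which differ in both genotype and treatment, were not compared. Separation was seen for 8.47% of all genes tested for THC in mutants, for 10.5% for the mutation under THC and for 17.5% between mutant THC and control vehicle. The median log2 difference of the 8 was -0.09 for THC in mutants, -0.11 for THC in controls, 0.08 for the mutation under THC and -0.07 for the mutation under vehicle. Over all genes the medians were -0.008, 0.000, 0.005 and -0.005. The 95% interval lay inside a 1.5-fold change for 4, 5, 3 and 5 of the 8 in these comparisons, and for 6 of 8 in each averaged comparison. Nrg1 and Nrg4 were outside that set in every comparison.

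**Figure D2:**
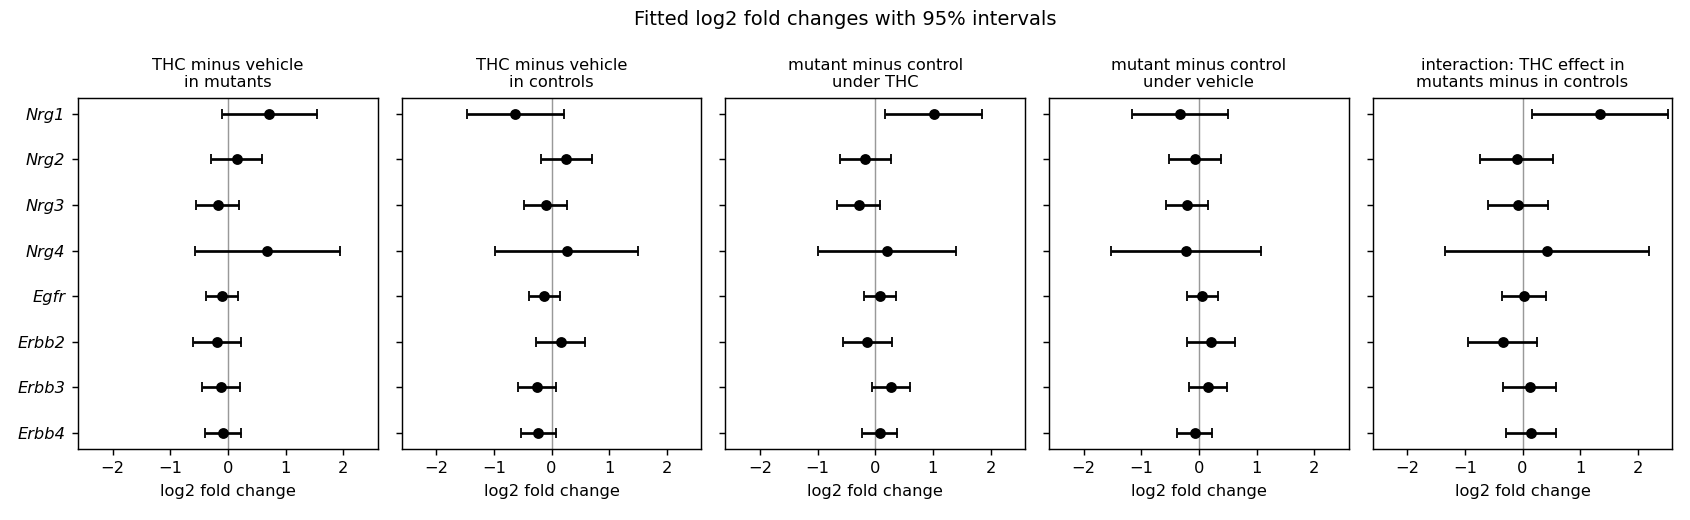
Fitted log2 fold changes (horizontal axes, 0 marked) of the 8 genes in 5 comparisons, named above each panel, with 95% intervals from edgeR as bars. All intervals cross 0 except those of Nrg1 for the mutation under THC (0.18 to 1.86) and for the interaction (0.17 to 2.53), neither of which passed adjustment.

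Spread between libraries of a group differed widely among the 8. The within-group SD of log2 CPM was 0.61 for Nrg4, 0.50 for Nrg1, 0.28 for Nrg2, 0.23 for Nrg3, 0.22 for Erbb2, 0.20 for Erbb3, 0.19 for Erbb4 and 0.17 for Egfr. The median over all genes tested was 0.142, so each of the 8 varied more than the median gene. The share of tested genes with a smaller SD ran from 57.3% for Egfr to 94.7% for Nrg4. Genes of like level were not compared, so low counts may add to the larger values.

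Part of this spread was shared between members. Of 28 pairs of members, 3 had a Pearson correlation of log2 CPM over the 12 libraries that passed 0.05 after adjustment over the 28 pairs, in permutation tests, and the same 3 passed by Spearman's rho. How often other pairs of genes correlate as strongly in these libraries was not measured. Genes outside the family reached r = 0.933 with Erbb4 and 0.911 with Egfr, as given further on. Nrg2 was low where Erbb4 was high (r = -0.90, permutation p = 8.0e-05, adjusted p = 0.0022; rho = -0.85, permutation p = 7.6e-04, adjusted p = 0.0106). Leaving out the 2 libraries farthest from the median, mutant THC 1 and 3, left r = -0.85, and within groups, after removing the group means, r was -0.92. Nrg2 also ran against Egfr (r = -0.78, permutation p = 0.0027, adjusted p = 0.0372; rho = -0.88, adjusted p = 0.0098 by permutation), with r = -0.78 without the 2 farthest libraries and -0.74 within groups. Egfr and Erbb4 rose and fell together (r = 0.76, permutation p = 0.0042, adjusted p = 0.0393; rho = 0.78, adjusted p = 0.0368 by permutation), with r = 0.74 without the 2 farthest libraries and 0.75 within groups. Without mutant THC library 3 the 3 values of r were -0.87, -0.83 and 0.80. The astrocyte marker score moved with all 3 genes, short of the threshold over 96 relations: r was -0.76 with Nrg2 (rho -0.78, permutation adjusted p = 0.0678 and 0.114), 0.71 with Erbb4 (rho 0.73, permutation adjusted p = 0.108 and 0.129) and 0.56 with Egfr (rho 0.71, permutation adjusted p = 0.276 and 0.129). Without mutant THC 1 and 3, the libraries farthest on that score, r was -0.54 with Nrg2, 0.54 with Erbb4 and 0.57 with Egfr. The 9 astrocyte markers summed to 5208 to 6744 CPM in mutant THC, 6111 to 6663 CPM in mutant vehicle, 6070 to 6217 CPM in control THC and 6663 to 6770 CPM in control vehicle libraries, and their part in these relations was not tested.

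**Figure D3:**
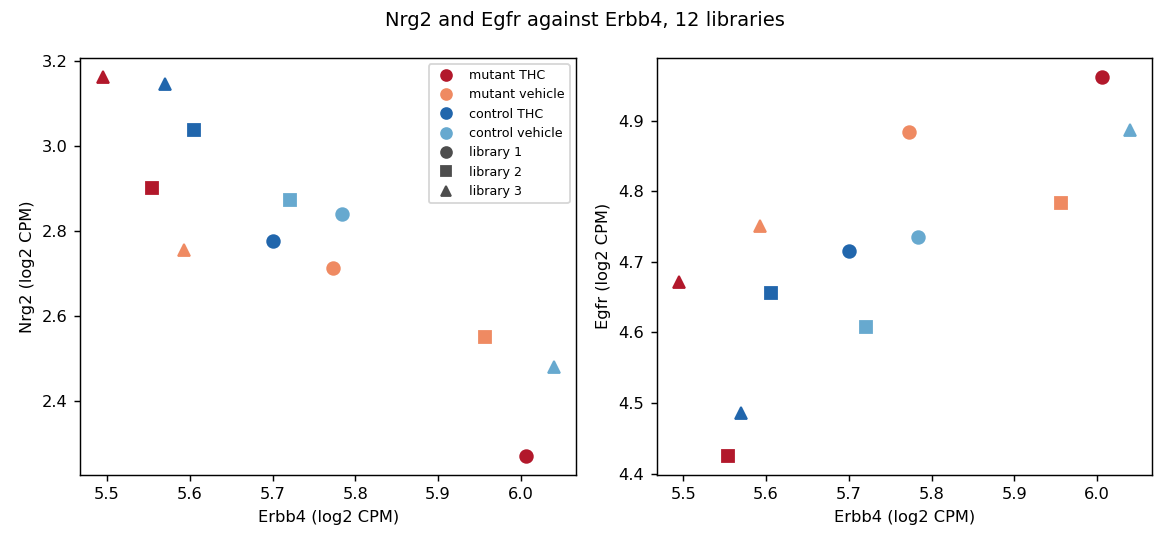
Nrg2 (left) and Egfr (right) against Erbb4, each in log2 CPM, with 1 point per library, colours for groups and shapes for library number. Nrg2 runs downward with Erbb4 (r = -0.90) and Egfr upward (r = 0.76), and libraries of each group are spread along both trends.

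The level of 2 members followed markers of the cell types they are known from. Marker scores are the mean log2 CPM of a list of genes of 1 cell type, and 12 such scores against 8 members gave 96 relations, of which 5 passed 0.05 after adjustment by Pearson's r and 1 by Spearman's rho. How often genes outside the family would pass in this way was not measured. Erbb3 followed the oligodendrocyte score, which holds the myelin genes Mbp and Mog (r = 0.92, permutation p = 7.0e-05, adjusted p = 0.0043; rho = 0.90, permutation p = 2.2e-04, adjusted p = 0.0211). This r was 0.88 without the 2 farthest libraries, 0.90 within groups and 0.90 without mutant THC library 3. Erbb3 also followed the score of oligodendrocyte precursors (r = 0.89, permutation adjusted p = 0.0051; rho = 0.77, permutation adjusted p = 0.115). In whole hippocampus fewer oligodendrocytes and less Erbb3 RNA per oligodendrocyte cannot be told apart.

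The oligodendrocyte markers moved with the Erbb3 averages of the groups. Their summed level was 4827 to 7748 CPM in mutant THC, 6529 to 7437 CPM in mutant vehicle, 3659 to 5438 CPM in control THC and 4720 to 5990 CPM in control vehicle libraries. For the mutation under vehicle all 11 markers had a difference above 0, with a median of 0.37 on the log2 scale against -0.005 over all genes, and 0 of the 11 passed by edgeR (4 at an unadjusted p under 0.05, against 17.8% of all genes). For the mutation under THC all 11 were above 0 with a median of 0.52, and for its averaged effect all 11 with a median of 0.42, with 0 called by edgeR and 10 at an unadjusted p under 0.05 in both, against 8.98% and 21.2% of all genes. For THC in controls all 11 lay below 0, with a median of -0.24, 0 called by edgeR and 0 at an unadjusted p under 0.05. Their part in the Erbb3 values was not tested.

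Nrg3 followed the excitatory neuron score, which holds Slc17a7 and Camk2a (r = 0.89, permutation p = 9.0e-05, adjusted p = 0.0043; rho = 0.84, permutation p = 0.0012, adjusted p = 0.0586). This r was 0.76 without the 2 farthest libraries, mutant THC 3 and mutant vehicle 3, 0.91 within groups and 0.81 without mutant THC 3 alone. The 6 excitatory markers summed to 1912 to 3253 CPM in mutant THC and 2300 to 2937 CPM in mutant vehicle libraries, against 2976 to 3416 CPM in control THC and 2841 to 3339 CPM in control vehicle libraries. Nrg3 also followed the hippocampal subfield score (r = 0.85, permutation adjusted p = 0.0207; rho = 0.66, permutation adjusted p = 0.177), with r = 0.64 without the 2 farthest libraries. With the striatal score Nrg3 had r = -0.89 (permutation adjusted p = 0.123) and rho = -0.22 (permutation adjusted p = 0.751). That r was -0.50 without mutant THC 3 and 0.06 without mutant THC 3 and mutant vehicle 3. Mutant THC library 3 had both the highest striatal score and the lowest Nrg3 of all libraries.

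Nrg1 ran against the hippocampal subfield score (r = -0.88, permutation adjusted p = 0.0144; rho = -0.70, permutation adjusted p = 0.132), with r = -0.91 within groups, -0.74 without mutant THC 3 and -0.50 without both mutant THC 3 and control THC 3, so its size depends on those libraries. Its relation with the striatal score (r = 0.74, permutation adjusted p = 0.169; rho = 0.26, permutation adjusted p = 0.727) rests on mutant THC 3, without which r was 0.22. Erbb4 had r = 0.45 with the GABA interneuron score (permutation adjusted p = 0.353; rho = 0.43, permutation adjusted p = 0.543). Without mutant THC 3 this r was 0.60. With the same score Nrg1 had r = 0.73 (permutation adjusted p = 0.169) and rho = 0.73 (permutation adjusted p = 0.129). That r was 0.86 without mutant THC 3 and 0.42 without control THC 2 and control THC 3. Gad1, the GABA-synthesising enzyme, stood at 338 to 456 CPM in mutant libraries, against 320.0 to 384 CPM in control libraries. The 456 CPM was that of mutant THC library 3. The 10 libraries other than it and mutant vehicle 3 had 320 to 384 CPM.

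**Figure D4:**
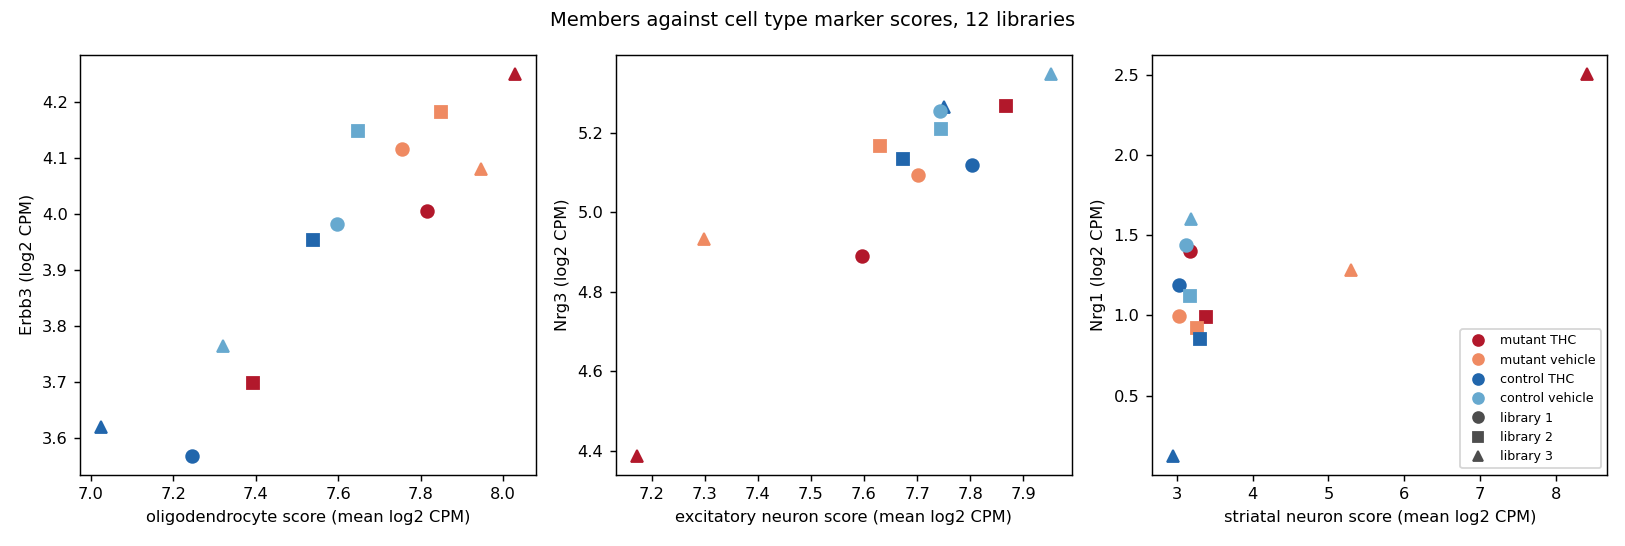
Erbb3 against the oligodendrocyte score, Nrg3 against the excitatory neuron score and Nrg1 against the striatal neuron score, all in log2 CPM, with 1 point per library, colours for groups and shapes for library number. The first 2 relations run through all groups (r = 0.92 and 0.89), while in the third mutant THC library 3 stands alone at a striatal score of 8.40.

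Among 14055 other genes at a mean of 1 CPM or more, those most like each member over the 12 libraries were found by Pearson's r of log2 CPM, as a description with no test. For Erbb3 they were Tmem63a (r = 0.967), Gpr37 (0.966) and Gpr180 (0.965), and for Nrg3 Pcsk5 (0.978), Tollip (0.974) and Gabbr2 (0.973), the last a subunit of the GABA-B receptor. For Nrg1 they were Elapor2 (0.976), Kctd8 (0.974) and Npas2 (0.968). For Erbb4 they were Map1lc3a (0.933), Ppard (0.924) and Adra1a (0.917), for Egfr B3glct (0.911), Rxra (0.904) and Minar1 (0.897), and for Nrg2 they included Ky (0.912) and Rnf113a1 (0.898). Erbb2 was nearest to Flna (0.956), the gene of filamin A, Gcdh (0.919) and Cyp4f13 (0.875). Nrg4 was nearest to Rapgef6 (0.819), Chsy1 (0.794) and Virma (0.773), the weakest likeness of the 8.

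The other genes of the pathway were followed as lists: other ErbB ligands, ligand-processing proteases, negative regulators, adaptors with the Ras-MAPK chain, PI3K-Akt and the synaptic scaffolds of ErbB4. Of 94 such genes in the table, 91 were tested, and 0 rose and 0 fell past an adjusted p of 0.05 by edgeR in any comparison. At an unadjusted p under 0.05 there were 7 for THC in mutants (3 higher and 4 lower) and 9 for THC in controls (6 higher and 3 lower). There were 16 for the mutation under THC (11 higher and 5 lower) and 23 under vehicle (14 higher and 9 lower). The interaction had 10, the averaged THC effect 11, the averaged effect of the mutation 25 and mutant THC against control vehicle 15. These counts of 91 stand beside all-gene shares of 5.73% for THC in mutants to 21.2% for the averaged effect of the mutation, as given above, with 17.8% for the mutation under vehicle. limma-voom called 0 in every comparison, while DESeq2 called 6 for the mutation under vehicle, 7 for its averaged effect, 2 for mutant THC against control vehicle and 0 in the other 5. Over all genes DESeq2 called 768 for the mutation under vehicle, 786 for its averaged effect and 165 for mutant THC against control vehicle. The median log2 difference of the 91 was -0.007 for THC in mutants, 0.000 for THC in controls, 0.015 for the mutation under THC and -0.013 under vehicle, against -0.008, 0.000, 0.005 and -0.005 over all genes.

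Of the ligands that bind EGFR, Tgfa averaged 72.4 ± 47.6 CPM in mutant THC, 50.3 ± 6.45 in mutant vehicle, 45.4 ± 6.60 in control THC and 39.96 ± 3.21 CPM in control vehicle libraries (SD, n = 3 each). Mutant THC library 3 carries the first mean, at 127 CPM against 45.2 and 44.7 CPM in mutant THC libraries 1 and 2, whose mean was 44.9 CPM. Hbegf averaged 13.1 ± 5.24 CPM in mutant THC, 10.5 ± 0.837 in mutant vehicle, 9.93 ± 1.02 in control THC and 10.5 ± 0.770 CPM in control vehicle libraries (SD, n = 3 each). A single mutant THC library, at 19.05 CPM, carries the first of these means. Egf and Btc stayed under 2 CPM in every library. Areg, Ereg and Epgn, at 0.199 CPM or less in every library, were not tested.

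No pathway gene passed, so the 3 with the smallest p are given for the mutation under vehicle. Rhbdf2, an inactive rhomboid that guides the protease ADAM17, had 1.33 ± 0.446 CPM in mutant vehicle against 0.554 ± 0.122 CPM in control vehicle libraries (log2 difference 1.26, SE 0.32, edgeR adjusted p 0.16). Lrig3, a membrane protein of the LRIG family, had 6.40 ± 0.867 CPM in mutant vehicle against 4.28 ± 0.0658 CPM in control vehicle libraries (log2 difference 0.58, edgeR adjusted p 0.16). Adam9, a metalloprotease, had 79.8 ± 0.646 CPM in mutant vehicle against 72.0 ± 0.858 CPM in control vehicle libraries (log2 difference 0.15, edgeR adjusted p 0.16). DESeq2 called these 3, with adjusted p of 0.024, 0.028 and 0.0095, among 768 genes that it called in that comparison. The mutant vehicle libraries were all high in choroid plexus markers and the control vehicle libraries all low. For these 3 genes too, the mutation and the choroid plexus content cannot be told apart there. For the averaged effect of the mutation the 3 were Rhbdf2 again (0.97), the adaptor gene Shc2 (-0.24) and Adam17 (0.25), with an edgeR adjusted p of 0.16 each.

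For the mutation under THC the genes with the smallest p included Errfi1, a feedback inhibitor of EGFR (log2 difference -0.28), and the kinase gene Akt2 (0.32), with an edgeR adjusted p of 0.55 each. With 1 library left out Akt2 ranged from 0.18, without mutant THC library 3, to 0.40, without mutant THC library 2. For THC in mutants they included the adaptor gene Shc1 (-0.38) and Dlg2, a synaptic scaffold (0.23), at an edgeR adjusted p of 0.81 each. This Dlg2 difference ranged from 0.15, without mutant THC library 3, to 0.29, without mutant THC library 1. THC in controls had Shc3 (-0.32), the phosphatase gene Ptpn12 (0.34) and the ERK1 gene Mapk3 (0.43), at an edgeR adjusted p of 0.70 each. For mutant THC against control vehicle they were Akt2 (0.40) and Rhbdf2 (1.24), with an edgeR adjusted p of 0.30, and Mtor (-0.22), also at 0.30. Akt2 there ranged from 0.26, without mutant THC library 3, to 0.47, without mutant THC library 2. The interaction gave Shc3 (0.48), Dlg2 (0.36) and Shc1 (-0.54), with edgeR adjusted p of 0.59, 0.66 and 0.66, and the averaged THC effect gave Ptpn12 (0.27), Pik3cb (0.20) and Mapk3 (0.28), at 0.79 each. None of these passed.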

How the data were processed

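The deposited table holds gene-level expected counts that the authors made with RSEM 1.2.21 per the file header and the submitters' processing notes, which also name CASAVA 1.8.4, FastQC, Bowtie2 2.2.2, edgeR 3.10.2 and the build mm10. Per the labels' protocols, total RNA was depleted of ribosomal RNA and sequenced as paired ends. Rows are RefSeq transcripts; 23018 rows took a symbol from RefSeq (GRCm38.p6), 129 from GENCODE, and 235 had none (0.73% of counts). The expected counts were rounded, filtered with filterByExpr, scaled with TMM (0.99 to 1.01) and fitted with edgeR 4.0.16 (robust quasi-likelihood, R 4.3.3) over all 12 libraries, with 8 residual degrees of freedom. Log2 CPM used a prior count of 2. Permutation tests of correlations were 2-sided. DESeq2 1.42.0, limma 3.58.1 (voom), RLE scaling, no filter, only the groups compared, a choroid plexus covariate and 12 single-library omissions were alternatives. Whether a group's libraries come from separate mice is stated only by their number, and a p-value here sets a difference against library-to-library spread, which may be technical. No pair of libraries agreed within sampling noise (lowest mean chi-square per gene 11.2 over 66 pairs). Intervals cover the spread between libraries. The members and lists were chosen with earlier results of these data known. Named pathway genes are those past the threshold or, where none passed, the 3 with the smallest p; likeness names the 3 highest r. Some genes these rules pick are not reported here. The code was tested on simulated data.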

Additional observations from a re-analysis of the deposited data

How the results depend on the processing

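No member was called in any of the 8 comparisons under RLE scaling, without a filter, with DESeq2, with limma-voom, with only the groups compared, with the choroid plexus covariate or without the 2 libraries with the highest striatal score (mutant THC 3 and mutant vehicle 3), the last chosen after seeing the data. Apart from single-library omissions, 396 of 422 member values kept their direction and side of the threshold, and 26 changed sign without passing. Of the 768 member values with 1 library left out, 703 stayed, 64 changed sign and 1 passed: Nrg3 for the averaged effect of the mutation without mutant THC 2. The count of members called there ranged from 0 to 1, and the count of all genes from 1 to 942. No paired analysis was possible because the labels' numbers are not shared between groups. At 3 to 16 counts per library, Nrg4 rests on few reads.

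Counts of all genes called moved with the tool, and the cause was not tested. DESeq2 called 3 genes for THC in mutants, 11 for THC in controls, 7 for the mutation under THC, 768 for the mutation under vehicle, 32 for the interaction, 3 for the averaged THC effect, 786 for the averaged effect of the mutation and 165 for mutant THC against control vehicle. The 1 gene called by edgeR became 0 with limma-voom for the mutation under each treatment and for mutant THC against control vehicle, and 0 without the 2 striatal-high libraries in the same 3 comparisons. With only the groups compared it became 523 for the mutation under vehicle and 0 for the mutation under THC and for mutant THC against control vehicle. With the choroid plexus covariate it became 0 for the mutation under vehicle and for mutant THC against control vehicle. With 1 library left out the count ranged from 0 to 3 for THC in mutants, from 0 to 2 for the mutation under THC, from 0 to 6 under vehicle, from 0 to 10 for the interaction and from 0 to 1 for mutant THC against control vehicle.

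Sign changes in log2 fold change were all of values that did not pass, and their cause was not tested. For the averaged effect of the mutation, Erbb4 became -0.01 without a filter and with limma-voom and -0.00 with DESeq2. For the averaged THC effect Nrg1 became -0.04 with limma-voom. The choroid plexus covariate gave Nrg2 0.05, Nrg3 0.07, Egfr -0.18, Erbb2 -0.15 and Erbb3 -0.19 for the mutation under vehicle. It gave Egfr -0.09, Erbb2 -0.18, Erbb3 -0.00 and Erbb4 -0.10 for its averaged effect, and Erbb2 -0.21 and Erbb3 -0.19 for mutant THC against control vehicle. Without the 2 striatal-high libraries, Nrg2 was -0.01 for THC in mutants, Nrg4 -0.29 for the mutation under THC, Erbb4 0.01 for the mutation under vehicle, and Nrg3 0.06 and Erbb3 -0.04 for the interaction. Nrg1 was -0.18 for the averaged THC effect and -0.02 for the averaged effect of the mutation. For mutant THC against control vehicle, Nrg1 was -0.20, Nrg2 -0.12, Nrg4 -0.03 and Erbb3 -0.12.

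With 1 library left out, log2 fold changes that crossed 0 ranged as follows. For THC in mutants, Nrg2 ranged from -0.06 to 0.37, Nrg3 from -0.41 to 0.02, Egfr from -0.25 to 0.02, Erbb3 from -0.27 to 0.01 and Erbb4 from -0.25 to 0.02. For THC in controls, Erbb2 ranged from -0.07 to 0.30. For the mutation under THC, Nrg2 ranged from -0.38 to 0.05, Nrg4 from -0.28 to 0.56, Egfr from -0.07 to 0.20, Erbb2 from -0.27 to 0.09 and Erbb4 from -0.10 to 0.17. For the mutation under vehicle, Nrg2 ranged from -0.18 to 0.01, Nrg4 from -0.53 to 0.21, Egfr from -0.00 to 0.13 and Erbb4 from -0.17 to 0.03. For the interaction, Nrg2 ranged from -0.31 to 0.11, Nrg3 from -0.31 to 0.12, Nrg4 from -0.06 to 0.78, Egfr from -0.13 to 0.14, Erbb3 from -0.02 to 0.26 and Erbb4 from -0.03 to 0.24. For the averaged THC effect, Nrg1 ranged from -0.25 to 0.19 and Erbb2 from -0.13 to 0.05. For the averaged effect of the mutation, Nrg4 ranged from -0.25 to 0.21, Egfr from -0.00 to 0.13, Erbb2 from -0.03 to 0.15 and Erbb4 from -0.09 to 0.05. For mutant THC against control vehicle, Nrg1 ranged from -0.20 to 0.67, Nrg2 from -0.12 to 0.30, Nrg4 from -0.02 to 0.89, Egfr from -0.19 to 0.08, Erbb2 from -0.07 to 0.17 and Erbb3 from -0.11 to 0.16.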
